A study of Sus scrofa with 10 samples.

Results

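Brain endothelial cells, the cells that line the blood vessels of the brain, were taken from the UMI counts of the developing and adult pig medial entorhinal cortex (MEC). The members were chosen by the measured UMIs of a few genes, which get no test here. A cell was a member if its summed UMIs of CLDN5, PECAM1 and FLT1 were at least 4 and at least 0.05% of its UMIs, if PDGFRB and RGS5 together had fewer UMIs than that sum, if C1QA and C1QB together had at most 5 UMIs, and if HBB had under 5% of its UMIs. CLDN5 was not matched to a row of the tables used here, so that the sum was that of PECAM1 and FLT1. The gate held 1525 of 28229 cells (5.40%), of which 1516 were in the 8 whole cell libraries and 9 in the 2 libraries of nuclei. The fetuses were crossbred, from Danish Landrace/Yorkshire sows and Duroc boars, and both sexes were used. The labels name no modified gene and no treatment, and the adult sows had been killed with sodium phenobarbital for another study, whose other procedures are not stated. Whole cells, dissociated with papain, came from E50 (1 library), E60 (3 libraries), E70 (3 libraries) and an adult brain (1 library), and nuclei, sorted from frozen tissue on 7-AAD, came from E70 and from an adult brain (1 library each). The study gives a postnatal day for these libraries and also speaks of brains from adult sows, so that the age is not settled, and adult is used here as in the labels. By the labels, the E50_1 library pooled 3 brains, E60_3 and E70_1 pooled 2 brains each and each of the other libraries came from 1 brain. The study differs from the labels here for E70_1 and E70_3. Replicate libraries thus existed for whole cells of E60 and of E70 alone, and whether replicates share a litter is not stated, so that p-values measure the spread between these libraries.

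The endothelium of the brain is the site of the blood-brain barrier. Its cells are sealed by tight junctions, take up glucose, amino acids and lipids through carriers, and form few vesicles. Wnt ligands from neural cells act through FZD4, LRP5, LRP6, TSPAN12, ADGRA2 and RECK on beta-catenin and its partner LEF1 to bring about and hold this state. VEGF acts through KDR and drives tip cells to lead new sprouts, and Notch and other signals divide the vessel bed into arteries, capillaries and veins.

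The genes of the gate lie on Sscrofa11.1 at chr12:14667643-14723296 (PECAM1, plus strand) and chr11:5620698-5797095 (FLT1, minus strand), by the RefSeq annotation. Among 19 genes of Wnt and beta-catenin signalling, those with the letters CTTTGAT on either strand in the 250 bases before the RefSeq start were AXIN2, NKD1 and LEF1. These letters are a form of the site that TCF and LEF proteins bind. The sequences are shown because all 3 genes were read out in the members below and are commonly used as readouts of Wnt signalling. The capitals mark CTTTGAT, its reverse complement, or the letters CNGGAAG, a form of the site of ETS proteins. AXIN2 is on the minus strand with the stretch at chr12:12343208-12343457, and NKD1 is on the minus strand with the stretch at chr6:34319585-34319834. For LEF1, on the plus strand of chromosome 8, a window of 29 bases around the match is given, as the 250 bases overlapped an annotated exon.
AXIN2: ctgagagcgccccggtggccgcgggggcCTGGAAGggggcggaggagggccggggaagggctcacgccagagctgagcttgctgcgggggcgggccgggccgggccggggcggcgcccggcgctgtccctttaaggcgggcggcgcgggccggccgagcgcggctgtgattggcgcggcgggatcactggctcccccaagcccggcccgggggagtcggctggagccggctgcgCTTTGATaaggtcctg
NKD1: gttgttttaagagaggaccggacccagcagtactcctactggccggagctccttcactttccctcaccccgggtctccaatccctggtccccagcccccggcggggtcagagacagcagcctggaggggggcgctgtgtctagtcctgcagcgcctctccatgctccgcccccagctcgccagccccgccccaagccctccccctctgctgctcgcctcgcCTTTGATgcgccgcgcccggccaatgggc
LEF1: gtacaaaatgcATCAAAGagacggtgaag

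The letters CTTTGAT were found in 3 of the 19 Wnt genes (15.8%) and in 408 of 19531 protein coding genes (2.09%) in the same length before the start. The letters CNGGAAG were found in 4 of the 16 leading and gate genes matched to a RefSeq gene and in 4997 of the 19531 genes (25.6%). A match is a stretch of letters and was not tested as a binding site.

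The members were unevenly spread over the libraries. There were 98 members in E50_1 (1.78% of cells), 534 in E60_1 (6.54%), 663 in E60_2 (19.1%), 74 in E60_3 (2.74%), 10 in E70_1 (2.03%), 11 in E70_2 (1.78%), 60 in E70_3 (1.92%) and 66 in Adult_1 (8.96%). Each of the E60 libraries had a higher share than each of the E70 libraries, by a wide margin in E60_1 and E60_2 and a narrow one in E60_3. The exact 95% intervals (Clopper-Pearson, counting error only) were 2.16 to 3.43% in E60_3 and 1.47 to 2.47% in E70_3, and these overlapped. Members made up 9.45% ± 8.54 of the cells of E60 (SD, n = 3) and 1.91% ± 0.123 of those of E70 (SD, n = 3). E70 was lower by -7.53 points (two-sided p = 0.1 by exact permutation, the smallest p that 3 against 3 libraries allow). Without E60_2 the difference was -2.73 points, and with E60_3 as the only E60 library it was -0.83 points, with no test. With all cells thinned to 2000 UMIs it was -3.42 points, and with the gate on PECAM1 without FLT1 it was -3.63 points. The gate without FLT1 held 1 of 493 cells in E70_1, 0 of 617 in E70_2 and 45 of 3120 in E70_3. The libraries differed in their other cells too, as a neuronal gate held 144 of 8171 cells in E60_1 and 70 of 3479 in E60_2, against 1228 of 2696 in E60_3, 155 of 493 in E70_1, 205 of 617 in E70_2 and 1168 of 3120 in E70_3. The part of this in the share of members was not tested. In the 2 sequencing pools that held a library of both stages, as far as the study's table gives the pools, the differences were -4.51 points (E60_1 and E70_1) and -0.822 points (E60_3 and E70_3). The whole cell libraries were dissociated and a share of cells need not be the share in the tissue.

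**Figure D1:**
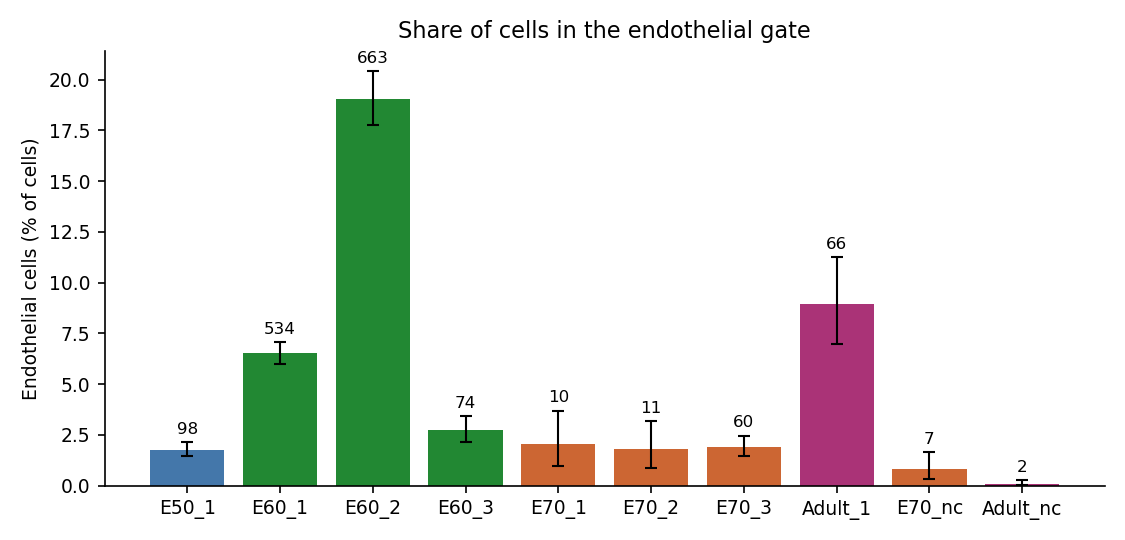
Percentage of the cells of each library in the endothelial gate, with exact 95% intervals as error bars and the number of members above each bar, coloured by stage. E60_2 was highest at 19.1% and the 3 E70 whole cell libraries lay between 1.78% and 2.03%.

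Members with a sum of 4 or 5 UMIs numbered 58 in E60_1, 69 in E60_2 and at most 5 in each other library. Cells with a sum of 3 that passed all other conditions numbered 21 in E60_1, 12 in E60_2 and at most 3 in each other library. With the limit at 3 UMIs the share of E70_1 was 2.23% and that of E70_2 was 1.94%, 1 cell more in each, and the difference between the stages was -7.59 points. Of the 1977 cells with a sum of 4 or more, 123 were below the share of 0.05%, 200 had as many UMIs of the mural genes, 78 had too many of the microglial genes and 128 of HBB, where a cell could fail in several ways. The median number of UMIs per member was between 8113 (E60_1) and 30790 (E70_2) in the whole cell libraries, above the median of all cells in the same library, which was between 4251 and 9403. A sum of 4 UMIs is reached more easily in a deep cell. Cell barcodes shared by any 2 libraries numbered at most 57.

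The markers not used by the gate bore out the label endothelial. CDH5, the cadherin of endothelial junctions, was detected in 68.0% (E60_1) to 89.8% (E50_1) of the members of the whole cell libraries and in 0 to 5.85% of the cells of a neuronal gate in the same libraries. The median numbers of UMIs in these neuronal cells were 5154 to 9544. Thus CDH5 was far above the share that free RNA gave in neuronal cells. ERG, the ETS factor of endothelial cells, was at 118 to 366 CPM (UMIs scaled to a common library total, in counts per 1e6) in the members of the 8 libraries, 19.1-fold above the other cells by the median over libraries. The defining markers of lymphatic endothelium were low, with PROX1 at most at 30.3 CPM, LYVE1 at most at 2.57 CPM and FLT4, a VEGF receptor, at most at 5.13 CPM. The lymphatic list of 6 genes summed to 29.9 CPM (E60_2) to 144 CPM (E70_1) in the members. In the other cells it summed to 129 CPM (E60_2) to 327 CPM (E60_3).

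Markers of other cell classes were present in members too. The mural markers other than the gate genes summed to 222 CPM (E60_2) to 618 CPM (E70_2) in the members of the whole cell libraries, where E60_1 and E60_2 were the lowest. Fibroblast markers summed to 1815 CPM in E60_3 and to 222 to 458 CPM in the 7 other libraries. Oligodendroglia markers summed to 18.2 to 113 CPM in the fetal libraries and to 949 CPM in Adult_1, against 5956 CPM in the other cells of that library. Microglial markers summed to 28.0 to 106 CPM in the members, highest in Adult_1 and, among E60 and E70, lowest in E60_1 and E60_2. The list of 8 astrocyte and radial glia markers summed to 1700 CPM in E50_1 and to 2097, 1626 and 1677 CPM in E60. It summed to 837, 1010 and 1281 CPM in E70, all below E60, and to 629 CPM in Adult_1. This sum was not split by gene and need not be glial RNA. A shorter list (SOX2, FABP7, AQP4, SLC1A3 and GFAP) summed to 80.8 to 307 CPM in the subclusters, described below, with at least 5 members of E50_1. VIM was at 916 to 1985 CPM in every subcluster. Neuronal markers summed to 502 CPM in E50_1 and to 68.8 to 186 CPM in the 7 other libraries. In an alternative fit, members were left out that had at least 3 UMIs of a shorter list of mural, fibroblast, microglial, neuronal or oligodendroglia markers. Such members were 26.2%, 22.8% and 67.6% of those of E60 and 80.0%, 81.8% and 55.0% of those of E70. The members kept were 4.82%, 14.7% and 0.890% of the cells in E60 and 0.406%, 0.324% and 0.865% in E70. A deep cell reaches 3 UMIs more easily, and the shorter mural and microglial lists hold genes that the gate limits (PDGFRB, RGS5, C1QA and C1QB). All 66 members of Adult_1 had at least 3 UMIs of the shorter oligodendroglia list (5 genes, 866 CPM). Scrublet set no usable threshold in E60_1 and E60_2 (0 calls in 8171 and 3479 cells) and called 4 members of E50_1 and 1 of E60_3, so that doublets were kept here. The part that these markers had in the results below was not tested, apart from the fit that left out such members.

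The genes that led the members are given as a description, as the same cells chose them. The 15 genes with the highest median ratio to the other cells of the same library were APLNR (49.97-fold), CD93 (47.4-fold), MYCT1 (44.8-fold), APOA1 (39.0-fold), SPARCL1 (38.6-fold), SLC7A5 (38.0-fold), CD34 (33.6-fold), CAVIN2 (32.1-fold), FOXF2 (31.5-fold), ITM2A (29.9-fold), KDR (28.1-fold), GPIHBP1 (27.3-fold), ESAM (27.0-fold), APCDD1 (25.7-fold) and RAMP2 (25.6-fold). Of these, 14 were at least 2-fold above the other cells in all 8 libraries, and APLNR, the apelin receptor, was so in 7. SLC7A5, the large neutral amino acid transporter, was at 950 CPM in E50_1, at 1034, 1070 and 946 CPM in E60, at 624, 1247 and 783 CPM in E70 and at 250 CPM in Adult_1. The fetal libraries overlapped and the adult library was the lowest. FOXF2, a forkhead factor, was at 149 to 195 CPM in the 7 fetal libraries and at 50.6 CPM in Adult_1. APOA1, an apolipoprotein of high density lipoprotein, was at 7407 CPM in E50_1, at 318, 1233 and 250 CPM in E60, at 454, 811 and 123 CPM in E70 and at 9964 CPM in Adult_1. E50_1 and Adult_1 stood far above the other 6 libraries. MED15, a Mediator subunit, was chosen after its values were seen: it was at 1673 to 8916 CPM in the members, 24.0-fold above the other cells by the median over libraries. Its RefSeq gene lies on the minus strand at chr14:50703010-50759310, and that of CLDN5 lies on the same strand at chr14:51161490-51162382, with 402179 bases and 14 protein coding genes between them. Whether the row named MED15 counts the RNA of MED15 alone was not tested, so that its level need not be that of the Mediator subunit.

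**Figure D2:**
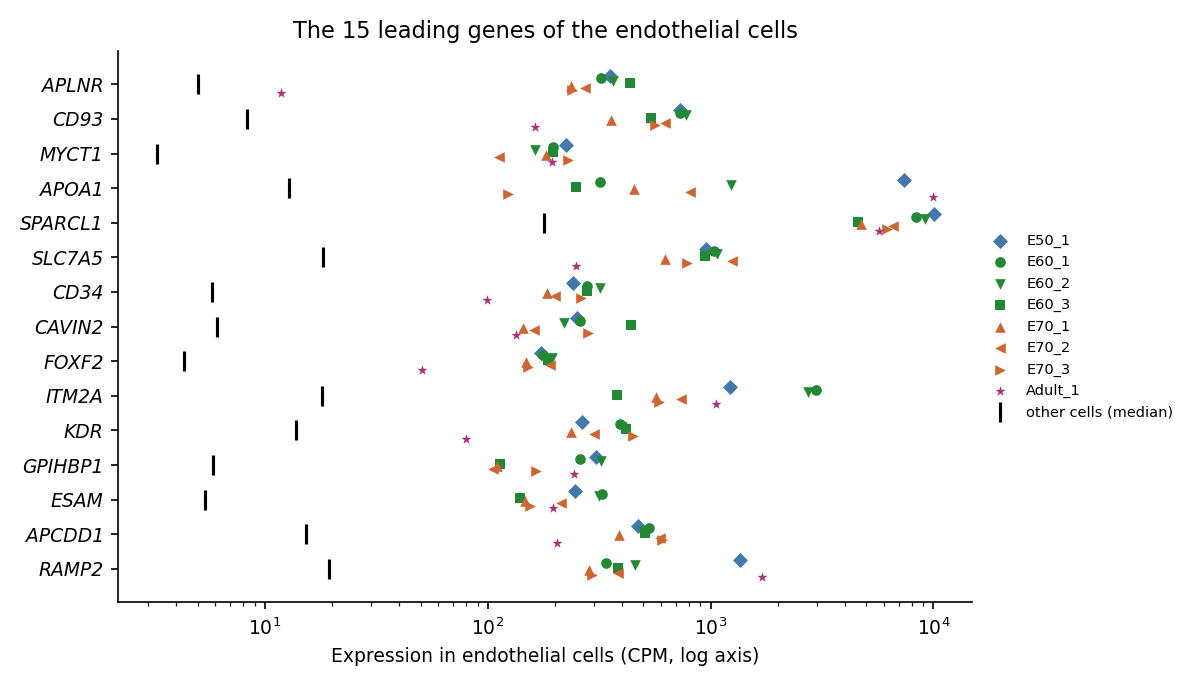
Expression of the 15 leading genes in the members of each of the 8 whole cell libraries (symbols, CPM on a log axis) and the median over libraries of the other cells (black bars). The libraries lay well to the right of the other cells for all genes but APLNR in Adult_1, at 11.9 CPM.

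Most of the measured transporters of the barrier were above the other cells, and a few were at or near 0. The list held 21 transporters and receptors, of which 18 were measured, so that it does not cover all carriers of the barrier. Among the transporters and receptors, 11 of the 15 genes with a median of at least 10 CPM were at least 2-fold above the other cells in all 8 libraries, against 417 of 9789 genes overall. TFRC, the transferrin receptor, was at 559 CPM in E50_1, at 1278, 1317 and 556 CPM in E60, at 418, 743 and 517 CPM in E70 and at 272 CPM in Adult_1. MFSD2A, which carries lipids and holds vesicles down, was at 391 CPM in E50_1, at 470, 497 and 201 CPM in E60, at 231, 330 and 164 CPM in E70 and at 226 CPM in Adult_1. E60_3 resembled the E70 libraries in both genes. PLVAP, a protein of fenestrae and of vessels that have no barrier, was at 345 CPM in E50_1, at 244, 347 and 110 CPM in E60, at 298, 208 and 131 CPM in E70 and at 21.4 CPM in Adult_1. SLC38A3, an amino acid carrier, had 0 UMIs in the members and in the other cells of all 8 libraries. SLC22A8, a carrier of organic anions, was at 0 to 15.4 CPM, and SLCO1C1, a carrier of thyroid hormone, was below the other cells (median ratio 0.274). The junction genes OCLN and ESAM were at 101 to 270 CPM and 140 to 325 CPM over the 8 libraries, and TJP1 at 198 to 413 CPM. Of 11 junction genes at 10 CPM, 5 were at least 2-fold above the other cells in all 8 libraries, and JAM3 and JAM2 had median ratios of 1.01 and 1.53.

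Of 17 genes of Wnt signalling at 10 CPM, 10 were at least 2-fold above the other cells in all 8 libraries, against 417 of 9789 genes overall. LEF1 was at 844 CPM in E50_1, at 1324, 1454 and 1054 CPM in E60, at 526, 724 and 1149 CPM in E70 and at 775 CPM in Adult_1, 24.8-fold above the other cells by the median over libraries. APCDD1, a Wnt inhibitor that is itself a target, was at 388 to 608 CPM in the fetal libraries. NKD1 was at 137 to 589 CPM and AXIN2 at 66.7 to 129 CPM in the fetal libraries. The receptor FZD4 was at 18.0 to 110 CPM and the tetraspanin TSPAN12 at 123 to 316 CPM in the same libraries, while the receptor components LRP6 and RECK were at the level of the other cells (median ratios 0.940 and 1.15, with no library above 2-fold in either). SOX17, a factor of arterial endothelium, was at most at 1.05 CPM and FOXQ1 was at 0 in the members and the other cells of all 8 libraries.

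In the list of transcription factors the ETS family factor ETS1 was at 369 to 982 CPM and FLI1, of the same family, at 317 to 861 CPM, and the highest level of each was below that of LEF1. MEF2C, a MADS box factor, was at 257 to 1053 CPM. Of 16 factors at 10 CPM, 12 were at least 2-fold above the other cells in all 8 libraries, against 417 of 9789 genes overall. The receptors KDR (79.9 to 450 CPM), TEK (87.3 to 201 CPM), TIE1 (59.3 to 141 CPM) and PTPRB (180 to 922 CPM) were all read, and the median ratio of 15 VEGF, angiopoietin and TGF-beta family receptors to the other cells was 12.6. Beside the same 417 of 9789 genes, 6 of 12 arterial, 2 of 10 venous and 5 of 12 tip cell genes at 10 CPM were at least 2-fold above the other cells in all 8 libraries.

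The comparison of E60 and E70 asked which genes changed in the members between these stages. None of 11529 genes passed in edgeR's quasi-likelihood test at an adjusted p of 0.05 (0.0% called). In counts simulated from these libraries, the same fit called 2 of 97 genes changed 2-fold (2.06%) and 49 of 93 changed 4-fold (52.7%). Thus 0 calls cannot tell a 2-fold change from none. At an unadjusted p under 0.05 there were 2135 genes (18.5%), of which 1615 were higher (14.0%) and 520 lower at E70 (4.51%), and DESeq2 called 891 genes (845 higher and 46 lower at E70). The counts of the 10 and 11 members of E70_1 and E70_2 came to 389648 and 409123 UMIs, against 5574625 and 8633775 in E60_1 and E60_2.

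The libraries fell into 3 pairs, of which 1 crossed the stages. The correlation of log2 CPM over 4212 genes, which are not independent, was 0.973 between E60_1 and E60_2, 0.958 between E60_3 and E70_3 and 0.915 between E70_1 and E70_2, and lay between 0.457 and 0.773 for all other pairs. E60_3 and E70_3 shared a sequencing pool in the study's table. E60_1 and E70_1 also shared one, and their correlation was 0.457, the lowest of all. The part of the pools in this pairing was not tested. Some genes show the pairing plainly and were chosen after their values were seen. SIK2, a kinase, was at 112, 89.1 and 779 CPM in E60 and at 66.7, 80.7 and 812 CPM in E70. NRP2, a co-receptor of semaphorins and VEGF, was at 55.6, 57.0 and 350 CPM in E60 and at 53.9, 51.3 and 419 CPM in E70. S1PR1, the receptor of sphingosine 1-phosphate, was at 220, 190 and 633 CPM in E60 and at 92.4, 122 and 785 CPM in E70. In each gene E60_3 and E70_3 stood above the other 4 libraries, and the same was true of FOSL2, KLF10, PER1 and TIPARP. The shares of UMIs from 60 ribosomal protein genes were 3.95% and 4.48% in the members of E70_1 and E70_2, and 6.06 to 7.74% in the other 6 whole cell libraries. Those from 13 mitochondrial genes were 2.29% and 2.32% in the members of E60_3 and E70_3, and 0.818 to 1.67% in the other 6. The part of these shares in the pairing was not tested. Leaving out E60_3 gave 1436 genes past the threshold (1086 higher and 350 lower at E70), leaving out E70_3 gave 1426 (1338 and 88), and leaving out both gave 5022 (2941 and 2081), while leaving out E60_1, E60_2, E70_1 or E70_2 gave 0. With the sequencing pool as a block, which could use the 2 pools that held both stages, 0 genes passed and 231 had an unadjusted p under 0.05.

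Genes of mitosis were lower at E70 in many cases, though none passed in the main edgeR fit. Of 17 measured mitosis genes, 16 were tested. The 3 E70 libraries lay below the 3 E60 libraries in 8 of the 16, against 11.4% of all genes tested, and in none did they all lie above, against 10.5%. The median log2 difference over the 16 genes was -0.68, against 0.02 over all genes. CDK1, UBE2C, CCNB1 and TOP2A were chosen after their values were seen. CDK1, the kinase that starts mitosis, was at 31.8, 30.6 and 26.9 CPM in E60 and at 10.3, 12.2 and 9.87 CPM in E70, a log2 difference of -1.42 (SE 0.33, edgeR adjusted p = 0.124). Its E60 libraries were close together, as were those of E70. UBE2C, a ubiquitin carrier of the anaphase, was at 70.3, 64.6 and 46.4 CPM in E60 and at 23.1, 7.33 and 20.5 CPM in E70 (log2 difference -1.73, SE 0.41, edgeR adjusted p = 0.124). CCNB1, the cyclin of mitosis, was at 23.5, 22.6 and 29.8 CPM in E60 and at 12.8, 4.89 and 4.56 CPM in E70 (log2 difference -1.84, SE 0.47, edgeR adjusted p = 0.124). The sum of the 8 astrocyte and radial glia markers, given above, was also lower at E70 without overlap, though it need not be glial RNA. In subcluster 3, described below, the sum of 5 such markers was the highest of the subclusters (1627 CPM). Its sum of proliferation markers was the second highest (377 CPM). The part of these markers in the mitosis values was not tested. The mitosis values rest on few UMIs, as CDK1 had 4, 5 and 13 UMIs and CCNB1 had 5, 2 and 6 UMIs in the E70 libraries. TOP2A, the topoisomerase of dividing cells, was at 53.1, 54.7 and 76.7 CPM in E60 and at 35.9, 19.6 and 29.6 CPM in E70 (log2 difference -1.05, SE 0.34, edgeR adjusted p = 0.166). HMGB2 and NUSAP1, the mitosis genes with the highest level, were at 271 to 339 CPM and 179 to 227 CPM in E60 and at 77.0 to 334 CPM and 100.1 to 173 CPM in E70, so that only HMGB2 overlapped between stages. With members that had other markers left out, E70_1 and E70_2 kept 2 members each and could not enter, and the fit set 3 E60 libraries against E70_3 alone, assumed to vary like E60. TOP2A then differed by -2.82 on the log2 scale and CDK1 by -2.13 (edgeR adjusted p = 0.515 and 0.524), from 2 UMIs of each in E70_3, and UBE2C had 0 UMIs in E70_3. Leaving out both E60_3 and E70_3 gave 7 lower and 0 higher of the 16, where 16.0% of all 13046 genes were called lower and 22.5% higher. DESeq2 gave 3 lower and 0 higher (0.399% and 7.33% of all genes). Leaving out E60_3 gave 2 lower and 0 higher (2.95% and 9.17% of all genes) and leaving out E70_3 gave 2 lower and 0 higher (0.67% and 10.2%).

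The cells outside the gate held more of these genes than the members. In the other cells CDK1 was at 111, 176 and 35.4 CPM in E60 and at 19.3, 27.1 and 26.03 CPM in E70. The difference between the stages was not found to differ between members and other cells (edgeR interaction, log2 0.49 for CDK1, adjusted p = 0.859; log2 0.25 for UBE2C, adjusted p = 0.938). Over all genes the interaction called 0 of 15739 (0.0%), with 1440 at an unadjusted p under 0.05. With mural cells in place of all other cells it called 43 genes, and without E60_3 it called 477. After thinning each member to 2000 UMIs, TOP2A had a UMI in 6.37%, 6.03% and 6.76% of the members of the E60 libraries and in 0% (0 of 10), 9.09% (1 of 11) and 1.67% (1 of 60) of those of E70. The E60 libraries were alike, whereas the E70 values rested on 2 cells. TOP2A was found in 6.39% ± 0.362 of E60 members (SD, n = 3) and 3.59% ± 4.84 of E70 members (SD, n = 3), or -2.80 points (two-sided p = 0.4 by exact permutation). Without E70_2 this was -5.55 points, without E70_1 -1.01 points and without E70_3 -1.84 points. Without thinning the difference had the other sign, at 13.1 points (exact permutation p = 0.3), and after thinning to 1000 UMIs it was 0.79 points (exact permutation p = 0.9), so that the direction depended on the depth chosen. In the neuronal gate TOP2A had a UMI in 2.48 to 10.0% of the thinned cells of the 6 libraries, a range that covers most of the shares of the members. TOP2A shares within the pools that held both stages differed by -6.37 points (E60_1 and E70_1) and -5.09 points (E60_3 and E70_3).

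**Figure D3:**
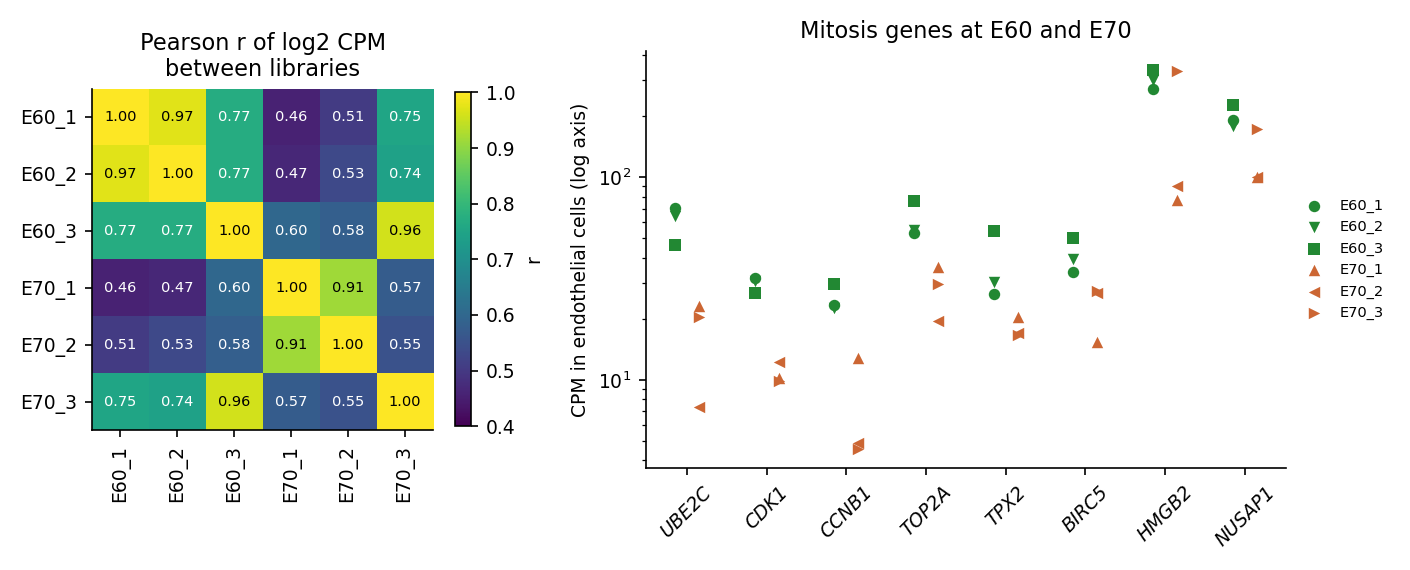
Left, Pearson correlation of log2 CPM between the members of the 6 E60 and E70 libraries, where the highest values outside the diagonal join E60_1 with E60_2, E60_3 with E70_3 and E70_1 with E70_2. Right, CPM (log axis) of 8 mitosis genes in the members of each library, with E60 in green and E70 in orange; CDK1 was near 30 CPM in E60 and near 10 CPM in E70.

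In the other lists no gene passed between E60 and E70 in the main edgeR fit either. DESeq2 called 1 of 13 tip cell genes higher and 2 of 7 genes of antigen presentation and interferon response lower at E70. It also called 1 of 12 mural, 1 of 4 microglial and 1 of 3 erythroid markers higher, and 1 of 2 markers of blood monocytes, platelets and lymphocytes. Of all genes it called 7.33% higher and 0.399% lower. Beside the 18.5% of all genes, those with an unadjusted p under 0.05 numbered 0 of 16 for the transporters, 1 of 11 for the junctions, 0 of 17 for Wnt signalling, 0 of 15 for the VEGF, angiopoietin and TGF-beta family receptors, 0 of 13 for the arterial genes, 1 of 10 for the venous genes, 0 of 16 for the transcription factors and 0 of 13 for the basement membrane. They numbered 4 of 7 for antigen presentation and interferon response, all lower at E70, and 3 of 13 for the tip cell genes, of which KCNE3 and PLAUR were higher and CXCR4 was lower. Without E60_3 and E70_3, beside 16.0% of all genes lower and 22.5% higher, the genes called lower at E70 were 10 of 16 transporters (with 1 higher), 8 of 13 arterial genes, 7 of 17 Wnt genes, 7 of 16 transcription factors, 10 of 22 surface genes, 5 of 15 receptors, 4 of 10 venous genes, 5 of 11 junction genes (with 1 higher), 3 of 7 genes of caveolae and fenestrae, 4 of 7 of antigen presentation and interferon response, 3 of 13 basement membrane genes, 2 of 13 tip cell genes (with 1 higher), 2 of 11 Notch genes (with 2 higher), 2 of 12 genes of DNA synthesis, 3 of 13 of glycolysis and hypoxia, 1 of 8 imprinted growth genes and 1 of 13 immediate early and heat shock genes. That setting was chosen after seeing the data. Without E60_3 alone, 0 of 16 transporters, 0 of 17 Wnt genes and 1 of 12 arterial genes were called lower (2.95% of all genes). Without E70_3 alone (0.67%) and with DESeq2 (0.399%), 0 genes of these lists were called lower. In the main fit the median log2 differences were -0.58 for the transporters, -0.10 for Wnt signalling, -0.17 for the receptors and 0.11 for the basement membrane. PLAUR, BST2, IFI6 and CYP26B1 were chosen after their values were seen. PLAUR, the urokinase receptor and a gene of tip cells, was at 24.0, 21.5 and 32.7 CPM in E60 and at 59.0, 48.9 and 64.6 CPM in E70 (log2 difference 1.22, SE 0.31, edgeR adjusted p = 0.124). The E70 libraries all lay above those of E60 in 1 of 13 tip cell genes tested, PLAUR. They did so in 1210 of 11529 genes overall (10.5%). BST2, a gene of the interferon response, was at 66.0, 97.8 and 21.98 CPM in E60 and at 12.8, 19.6 and 14.4 CPM in E70 (log2 difference -1.95, SE 0.57, edgeR adjusted p = 0.138). IFI6, of the same response, was at 1008, 1563 and 69.4 CPM in E60 and at 23.1, 249 and 25.1 CPM in E70, so that E60_3 lay within the range of E70. CYP26B1, which breaks down retinoic acid, was at 24.0, 20.2 and 22.5 CPM in E60 and had 0 UMIs in the 3 E70 libraries (edgeR adjusted p = 0.124). With a floor of 3 UMIs over the 2115324 UMIs of the E70 members, it was at least 15.7-fold higher at E60. The DESeq2 adjusted p was 0.0197 for PLAUR, 0.0323 for BST2 and 0.000208 for CYP26B1. In the other cells CYP26B1 was at 78.8, 114 and 2.60 CPM in E60 and at 0, 0.478 and 0.394 CPM in E70. In the members of E50_1 and Adult_1 it was at 2.45 and 2.37 CPM. Of 12 mural markers outside the gate, 5 had an unadjusted p under 0.05, all higher at E70, where 14.0% of all genes were so. Without E60_3 and E70_3, 8 of the 12 were called higher and 1 lower. In that fit the genes called higher were also 3 of 4 microglial, 2 of 6 fibroblast, 2 of 4 neuronal and 2 of 3 lymphatic markers. So were 2 of 4 oligodendroglia markers (with 1 lower), 1 of 3 erythroid markers and 1 of 2 markers of blood monocytes, platelets and lymphocytes. In contrast, 3 of 8 astrocyte and radial glia markers were called lower. The part of these markers in the lower calls of the endothelial lists was not tested.

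The adult library stood apart from the 7 fetal libraries in many genes, with no replicate. Of 9789 genes with a median of at least 10 CPM over the 8 libraries, 1147 were higher in Adult_1 than in each fetal library (11.7%) and 2305 were lower (23.5%). Beside this background, the genes below the fetal range numbered 11 of 17 for Wnt signalling, 7 of 15 for the VEGF, angiopoietin and TGF-beta family receptors, 8 of 12 for the tip cell genes, 9 of 13 for the basement membrane, 4 of 7 for caveolae and fenestrae, 9 of 13 for mitosis and 7 of 9 for DNA synthesis. They numbered 5 of 15 for the transporters, 3 of 11 for the junctions, 4 of 12 for the arterial genes, 3 of 10 for the venous genes, 3 of 10 for the Notch pathway, 7 of 22 for the surface genes, 4 of 11 for glycolysis and hypoxia, 3 of 7 for imprinted growth genes and 3 of 16 for the transcription factors, and 0 of 6 for antigen presentation and interferon response, of which 4 were above the fetal range. AGRN, a heparan sulfate proteoglycan of the basement membrane, was at 311 to 437 CPM in the fetal libraries and at 56.9 CPM in Adult_1 (72 UMIs, exact 95% Poisson interval 44.6 to 71.7 CPM, counting error only). COL4A2, a collagen IV chain, was at 572 to 1476 CPM and at 180 CPM. KDR was at 236 to 450 CPM and at 79.9 CPM, and PLVAP at 110 to 347 CPM and at 21.4 CPM. Each of these lay below every fetal library.

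By a rule of size, 72 of 1150 genes at 100 CPM or more in all fetal libraries were lower in Adult_1 by at least 2-fold (6.26%), and 155 of 1823 genes at 100 CPM or more in Adult_1 were at least 2-fold above each fetal library (8.5%). Those with the highest ratios below the fetal range were SLC1A4, LXN, APLNR, NREP, HPGD, MARCKS, FSTL1, CDH11, AGRN and PLVAP. SLC1A4, a carrier of neutral amino acids, had 2 UMIs in Adult_1 (1.58 CPM, exact 95% Poisson interval 0.192 to 5.71 CPM), against 341 to 519 CPM in the fetal libraries. APLNR had 15 UMIs in Adult_1 (11.9 CPM, interval 6.64 to 19.6 CPM), against 236 to 436 CPM in the fetal libraries. Those with the highest ratios above the fetal range were GNLY, HLA-DRA, CD74, TMPRSS11F, SLA-DQB1, GBP2, MBP, PSMB9, FAM107A and GBP1. Of these, HLA-DRA, SLA-DQB1 and CD74 are of class II antigen presentation, PSMB9 is of the immunoproteasome and GBP1 and GBP2 are induced by interferon. CD74 was at 14.2 to 34.2 CPM in the fetal members and at 1789 CPM in those of Adult_1 (2262 UMIs, interval 1716 to 1864 CPM). In the other cells of Adult_1 it was at 527 CPM, and HLA-DRA was at 588 CPM in the members and 114 CPM in the other cells. Thus these genes were 3.39-fold and 5.18-fold higher in the members than in the other cells of the same library. Both genes are also made by microglia and macrophages, whose markers were highest in the members of Adult_1 (106 CPM, against 1407 CPM in its other cells), and their part was not tested. MBP, a gene of myelin, went the other way, at 786 CPM in the members and 4254 CPM in the other cells. B2M, the light chain of class I molecules, was at 436 to 2119 CPM in the fetal members and at 11574 CPM in the adult ones.

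Genes that dissociation is known to raise were also above the fetal range in the adult library. Of 13 immediate early and heat shock genes, 12 were higher in Adult_1 than in each fetal library and 0 were lower. Of all genes at 10 CPM, 11.7% were higher and 23.5% lower. FOS was at 413 to 830 CPM in the fetal libraries and at 2456 CPM in Adult_1, and ATF3 at 83.6 to 429 CPM and at 1451 CPM. The part of this response, and of the oligodendroglia RNA above, in the adult differences was not tested. VWF, of the clotting system, was at 151 to 240 CPM and at 541 CPM, and ICAM1, an adhesion molecule of leukocytes, at 62.4 to 157 CPM and at 507 CPM.

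**Figure D4:**
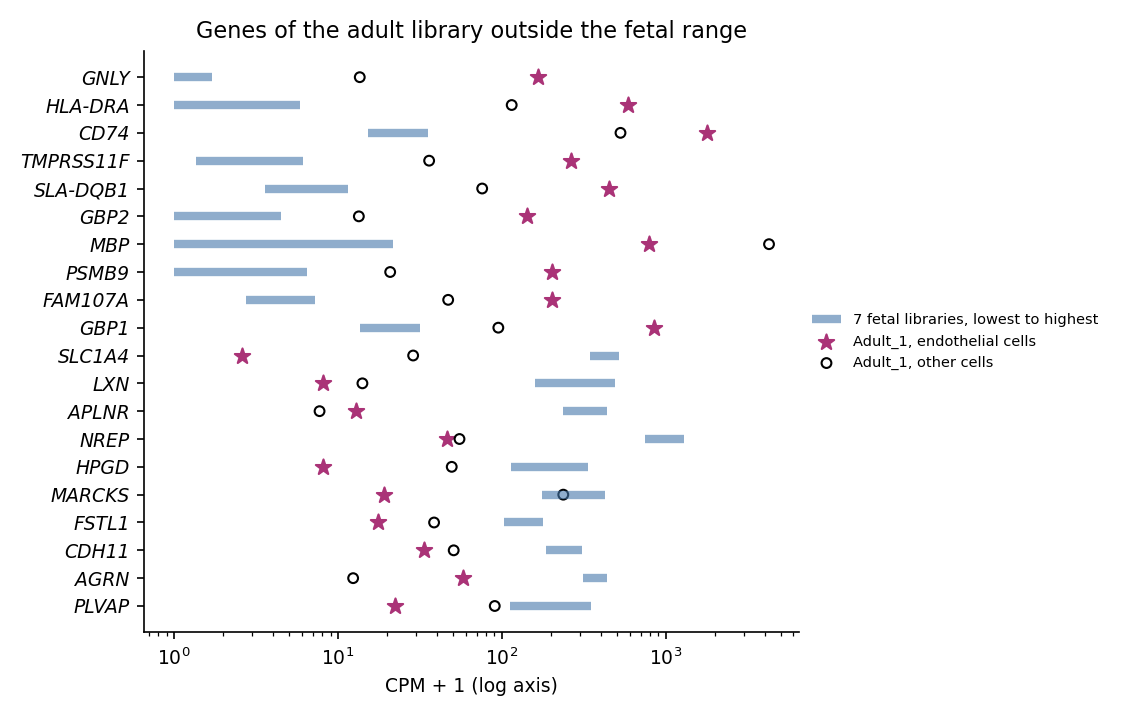
CPM + 1 (log axis) of the 20 genes with the highest ratios between Adult_1 and the nearest of 7 fetal libraries, with bars from the lowest to the highest fetal library, stars for the adult members and circles for the other adult cells. CD74 was at 1789 CPM against at most 34.2 CPM, and SLC1A4 at 1.58 CPM against at least 341 CPM.

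The members were then divided among themselves. Clusters of the 1495 members of the 6 libraries with at least 20 members were formed without the genes of the lists or of the gate, so that the levels of these genes had no part in them, although genes that vary with them did. The 8 subclusters are described and not tested. Subcluster 6 was arterial-like (121 cells). It had GJA5 at 294 CPM, GJA4 at 292 CPM, HEY1 at 310 CPM, SEMA3G at 390 CPM and EFNB2 at 448 CPM, connexins, a Notch target, a semaphorin and an ephrin of arteries. GJA5 was at 0 to 38.4 CPM in the 7 others. Of the venous markers, APLNR and NR2F2 were lowest in it, at 121 and 8.02 CPM, and VWF was highest in it, at 569 CPM. The venous markers summed to 781 CPM in it, second to 930 CPM in subcluster 5. The summed level of arterial markers was 3682, 1967 and 2332 CPM in its cells of E50_1, E60_1 and E60_2.

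Subcluster 5 was proliferating-like (165 cells). It had TOP2A at 141 CPM, UBE2C at 173 CPM, CDK1 at 70.7 CPM and BIRC5 at 101 CPM. It also had the highest APLNR, at 604 CPM, and NR2F2 at 132 CPM, second to subcluster 2 at 146 CPM, and its GJA5 was at 0.552 CPM. Its arterial markers had the lowest sum, at 223 CPM, and its median number of UMIs was 1.53 times that of the libraries from which the cells came. Subcluster 5 held 59 members of E60_1, 90 of E60_2, 8 of E50_1, 6 of E60_3, 2 of E70_3 and 0 of Adult_1.

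Subcluster 7 (85 cells) had the highest levels of the tip cell markers ANGPT2 (190 CPM), ADM (235 CPM), PLAUR (100.3 CPM) and ESM1 (24.2 CPM). The other tip cell markers were not highest in it. CXCR4 was at 92.3 CPM in it and at 135 CPM in subcluster 4, and KCNE3 at 20.8 CPM and at 27.9 CPM in subcluster 2. APLN and PGF were at most at 1.36 CPM in any subcluster. No tip cell marker was among the 10 leading genes of subcluster 7, which opened with MZB1, P2RX5 and CLEC1A, so that it was left unnamed. MFSD2A was lowest in it, at 127 CPM, as was ABCG2, a drug efflux pump, at 158 CPM. All but 2 of its cells were from E60_1 and E60_2. Subcluster 4 (185 cells) had the highest MFSD2A (867 CPM), SLC3A2 (1918 CPM) and PLVAP (553 CPM), at a median number of UMIs 0.545 times that of its libraries. MFSD2A was thus at 867 CPM in subcluster 4 and at 127 CPM in subcluster 7.

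Subcluster 1 (448 cells) held 56 of the 66 adult members, and HLA-DRA, CD74 and SLA-DQB1 led it. These 3 genes were far higher in adult than in fetal members (HLA-DRA at 588 CPM against at most 4.89 CPM). Their lead, from pooled counts, thus need not describe the fetal cells of subcluster 1. The 3 remaining subclusters were led by genes of other classes and were not named: subcluster 2 (217 cells) by COL3A1, COL1A2 and RGS5, subcluster 3 (211 cells) by PTN, PTPRZ1 and AQP4, and subcluster 8 (63 cells) by STMN2, NSG2 and GAP43. Subcluster 2 had a median number of UMIs 1.61 times that of its libraries, and it held 28 of the 74 members of E60_3 and 18 of the 60 of E70_3, against 83 of 534 and 57 of 663 in E60_1 and E60_2.

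**Figure D5:**
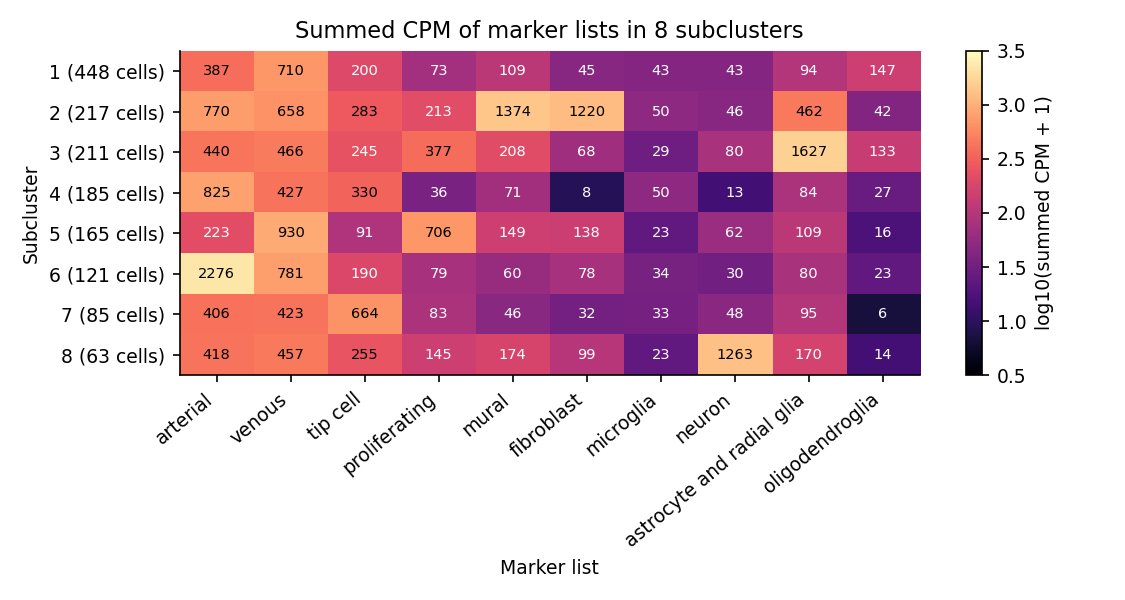
Summed CPM of marker lists (columns) in the 8 subclusters of the members (rows), printed in each cell and coloured on a log10 scale. The mural list includes RGS5 and PDGFRB, which the gate limits. Arterial markers reached 2276 CPM in subcluster 6, proliferation markers 706 CPM in subcluster 5 and tip cell markers 664 CPM in subcluster 7.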

How the data were processed

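The authors processed the reads with Cell Ranger (version 2.20 per the labels' processing notes) against Sscrofa11.1 with an Ensembl annotation that counted introns, and deposited UMI counts per gene and cell, 1 table per library, with no normalization. These tables held 22452 genes. All else was computed here. Member counts were summed per library and given as CPM. E60 and E70 were compared with edgeR 4.0.16 (quasi-likelihood test, TMM scaling, filterByExpr, Benjamini-Hochberg adjustment, at least 10 members a library), and DESeq2 1.42.0 was an alternative. Shares were compared by exact permutation over libraries. The stage difference in members was set against that in the other cells by an interaction term with the library as a block. Subclusters came from the Leiden method on 20 components of 2000 variable genes, centred within libraries (15 neighbours, resolution 0.6). Of 376 list genes, 345 were measured; 987 identifiers were given a symbol through a table of gene names. Lists and members were chosen with earlier results of these data known. Named genes were those of the lists (up to 3 with the highest level where none passed), the 15 leading genes and the 10 genes a direction with the highest ratio between adult and fetal libraries; others are said to be, or were, chosen after their values were seen. Replicate numbers were not used to pair the libraries in the main fit. Correlations of deviations from the stage means were -0.023, 0.315 and 0.138 for E60 and E70 libraries of the same number. They were -0.258 to 0.136 for those of different numbers. The depth was 2336865 to 55755512 UMIs a library, and intervals cover counting error only. Nuclei, with 9 members, entered no test. Sequences are from RefSeq, Sscrofa11.1. The code was tested on simulated data.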

Additional observations from a re-analysis of the deposited data

Results flagged for a closer look

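The nuclei entered no comparison of the report, yet 7 of the 858 E70 nuclei (0.816%) passed the endothelial gate, above the 3 that a count of 0 allows. In the adult nuclei 2 of 2552 passed (0.0784%), below that limit. In the 7 E70 nuclei, with 23560 UMIs in all, FLT1 was at 2589 CPM, PECAM1 at 255 CPM, LEF1 at 1188 CPM and TSPAN12 at 934 CPM, while CDH5 was at 0.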

How the results depend on the processing

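The difference in the share of members kept its sign under all 17 alternatives (-10.9 to -0.83 points). That in the TOP2A share kept its sign under 8 alternatives (-5.55 to -1.01 points) and had the other sign without thinning (13.1 points) and at 1000 UMIs (0.79 points). The count of genes between E60 and E70 was 0 under 18 alternatives. It was 891 with DESeq2, 425 with no filter on low counts (413 higher and 12 lower at E70) and 5022 without E60_3 and E70_3, the last chosen after seeing the data, and it ranged from 0 to 1436 when 1 library was left out. The count for the interaction was 43 with mural cells as the other class and ranged from 0 to 477 when 1 library was left out. With the replicate block 0 genes passed and 1842 had an unadjusted p under 0.05, the exact p of the share was 0.25 and that of the TOP2A share 0.5. All 7 genes whose fold is given kept their direction under every alternative they could be fitted in, and the adjusted p ranged from 0.000208 to 1.00 over these. With the gate at 0.1% of UMIs, without FLT1 or without members that had other markers, E70_1 and E70_2 had under 10 members and E70_3 stood alone for E70, and at 6 UMIs E70_1 was left out. Thinning to equal numbers of cells left 272 genes to test, so that it says little. The causes were not tested. The members of E70_1 and E70_2 had 389648 and 409123 UMIs, so that low genes there rest on few counts.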
